A study of Mus musculus with 31 samples.

Results

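Rian is a long noncoding RNA of the imprinted Dlk1-Dio3 locus, and its level differed widely between control embryoid bodies of 1 genotype and 1 day. The 9 control day 11 arrays were ranked by Rian, by the log2 intensity of the brightest of its probe sets across the 31 arrays, and the 3 highest (replicates 8, 3 and 6, called Rian-high) were set against the 3 lowest (replicates 9, 7 and 1, called Rian-low). These are 6 of the 9 control day 11 arrays and of the 31 arrays in the series, and 18194 genes were measured on each. The arrays were chosen by a value measured on them, so all differences between them are given as a description, with no test.

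The study hybridized 1 Affymetrix array per sample to RNA of induced pluripotent stem cells (iPSCs, fibroblasts returned to a state like that of the early embryo) and of embryoid bodies (floating cell clusters in which such cells differentiate on their own). The Rian-high and Rian-low embryoid bodies were both wild type, of strain CD1, grown to day 11 from iPSCs that Sendai virus had made from tail-tip fibroblasts of adult males. The groups that the ranking did not use were Nos3-/- embryoid bodies at day 11 (strain B6.129P2-Nos3tm1unc/J, n = 6), Nos3-/- iPSCs at day 0 (n = 6) and control iPSCs at day 0 (CD1, n = 10), so genotype and strain cannot be told apart. Day 0 cells grew on feeders, which are growth-arrested mouse embryonic fibroblasts, and embryoid bodies were started in AggreWell microwells. The labels do not say which arrays share a mouse, an iPSC clone or a culture, so any spread given here is that between arrays and may be technical. In such bulk samples, fewer cells of a type and less RNA per cell cannot be told apart.

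The Dlk1-Dio3 locus is expressed by parent of origin. The chromosome from the father expresses the protein-coding genes, among them Dlk1, a membrane protein related to Notch ligands, and the chromosome from the mother expresses a chain of noncoding RNAs: Meg3 (also called Gtl2), Rian, a host of small nucleolar RNAs, and Mirg, a host of microRNAs. Mouse iPSC lines are known for silencing the maternal RNAs in some clones and keeping them in others, a difference tied to DNA methylation of the locus and to how well the cells support development.

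The promoter windows of the 3 maternal RNAs and of Dlk1 are shown because these RNAs carry the difference and Dlk1, at the end of the same locus, overlaps. Each window runs from 250 bases before to 50 bases after a RefSeq transcript start on GRCm38.p6, with CG dinucleotides (the sites of DNA methylation in mammals) in capitals. For Meg3, Rian and Mirg that start is the first base of the gene in the RefSeq gene table, and for Dlk1 it lies 338 bases downstream of the gene's first base.
Meg3, chr12:109540746-109541045, plus strand: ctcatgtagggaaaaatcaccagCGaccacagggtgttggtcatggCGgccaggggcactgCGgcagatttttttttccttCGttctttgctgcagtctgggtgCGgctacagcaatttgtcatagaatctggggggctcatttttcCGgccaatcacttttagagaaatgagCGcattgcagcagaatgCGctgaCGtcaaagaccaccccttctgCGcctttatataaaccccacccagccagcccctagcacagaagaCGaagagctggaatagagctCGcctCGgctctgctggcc
Rian, chr12:109603695-109603994, plus strand: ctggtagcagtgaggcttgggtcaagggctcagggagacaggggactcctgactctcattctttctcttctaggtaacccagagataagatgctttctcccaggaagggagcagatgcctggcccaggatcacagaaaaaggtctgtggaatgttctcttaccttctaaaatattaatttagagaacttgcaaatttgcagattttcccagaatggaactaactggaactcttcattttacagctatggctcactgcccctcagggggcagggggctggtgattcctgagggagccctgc
Mirg, chr12:109734731-109735030, plus strand: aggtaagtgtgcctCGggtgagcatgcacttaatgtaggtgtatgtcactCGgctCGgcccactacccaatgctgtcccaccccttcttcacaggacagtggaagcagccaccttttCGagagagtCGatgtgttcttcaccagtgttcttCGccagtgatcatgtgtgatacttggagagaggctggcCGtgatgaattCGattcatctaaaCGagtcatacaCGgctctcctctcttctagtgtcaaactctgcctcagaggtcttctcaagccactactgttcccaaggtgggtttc
Dlk1, chr12:109452573-109452872, plus strand: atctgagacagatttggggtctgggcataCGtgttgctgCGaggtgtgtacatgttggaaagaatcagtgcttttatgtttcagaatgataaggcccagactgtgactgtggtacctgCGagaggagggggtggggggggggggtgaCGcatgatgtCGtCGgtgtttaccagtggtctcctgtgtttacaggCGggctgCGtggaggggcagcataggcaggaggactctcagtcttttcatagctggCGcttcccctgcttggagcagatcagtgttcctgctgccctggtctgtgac
Meg3 has 2 windows of this kind, of which only that shown was examined. This Meg3 window holds 13 CG dinucleotides, and 37.9% of 32851 such windows of the same length hold as many or more. Mirg has 10 (43.5% hold as many or more), Dlk1 has 9 (45.8%) and Rian has 0 (5.4% of windows have none). The 8-base motif TGACGTCA, which reads the same on both strands and is known as the cAMP response element, is in the Meg3 window and in 1.79% of all windows, and it is not in the windows of Rian, Mirg or Dlk1. These matches are a description of the letters, and methylation was not measured on these arrays.

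One Rian-high array went against its label. Control day 11 replicate 3 had 3.21 for Eif2s3y, 2.79 for Kdm5d and 2.95 for Uty, Y-linked genes that males express, whereas the other 8 control day 11 arrays were at 10.46 or above, 6.26 or above and 7.17 or above. Its Xist, the RNA that coats an inactive X chromosome, was 9.62, against 6.65 to 8.37 on the other 8. Day 0 arrays reached such Xist levels too, at 7.99 to 10.10 in control and 7.17 to 10.18 in Nos3-/- iPSCs. Eif2s3y was 10.08 or above on all Nos3-/- day 0 arrays. Day 0 cells grew on feeders, and what feeders added to their Xist was not tested, so these levels cannot be carried over to day 11. On Nos3-/- day 11 arrays, Xist was 6.63 to 8.59, below that of replicate 3. The labels give all donors as male. Among control day 0 arrays, Eif2s3y was 7.75 on replicate 4 (10.19 or above on the other 9), and Kdm5d was 5.01 on replicate 4 and 5.31 on replicate 9. These 3 genes and Xist, except Eif2s3y, were singled out after their values were seen, and values without replicate 3 are given beside the list medians and genes that it moved by over 1.5 times. As a whole, the median correlation of a control day 11 array with the other 8 over all probe sets was 0.979 for replicate 1, a Rian-low array, and 0.982 to 0.991 for the rest.

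Rian itself was at 13.19, 13.03 and 13.03 on Rian-high replicates 8, 3 and 6, against 9.48, 8.82 and 6.21 on Rian-low replicates 9, 7 and 1, in log2 intensity. The means were 13.08 ± 0.09 and 8.17 ± 1.73 (SD, n = 3 each), a difference of 4.91 that follows from the ranking. The Rian-high arrays lay almost on top of each other, and the Rian-low arrays were spread. Just outside the 2 ends, replicate 5 was at 13.01, only 0.02 under the third array of the high end, and replicate 2 was at 9.73, 0.25 above the first of the low end. The widest gap in the ranking, 3.27, lay lower down, between 5 arrays that lay within 0.19 of each other and 4 arrays at 9.73 to 6.21. Replicates 5 and 4 therefore shared the level of the Rian-high arrays, and replicate 2 was near the Rian-low ones.

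**Figure D1:**
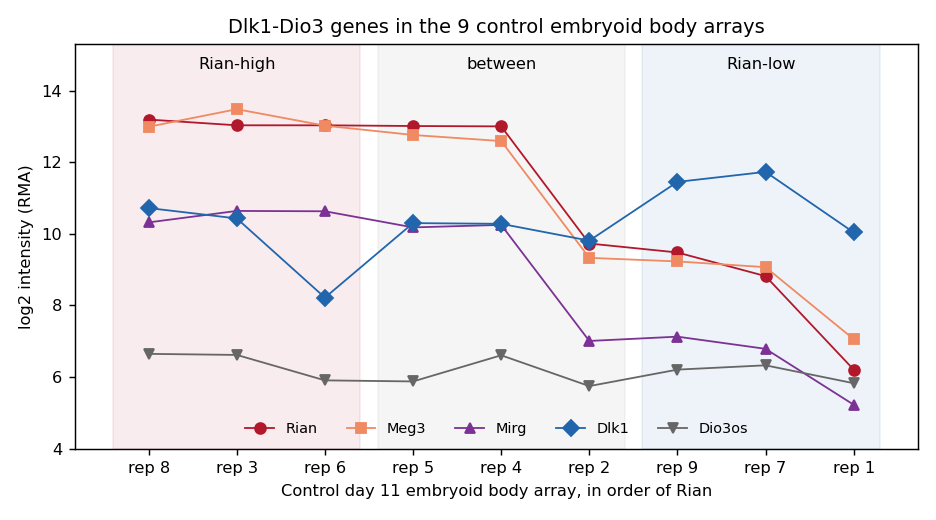
Log2 intensity (vertical axis) of 5 genes of the Dlk1-Dio3 locus on each of the 9 control day 11 arrays, in falling order of Rian from left to right, with each line joining 1 gene's values. Rian, Meg3 and Mirg step down together between replicates 4 and 2, while Dlk1 and Dio3os overlap between the Rian-high and Rian-low arrays.

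Both other maternal RNAs split the arrays in the same way. Meg3 was at 12.99, 13.48 and 13.02 on Rian-high replicates 8, 3 and 6, against 9.23, 9.07 and 7.06 on Rian-low replicates 9, 7 and 1. Mirg was at 10.32, 10.64 and 10.63 on the Rian-high arrays and at 7.13, 6.79 and 5.23 on the Rian-low arrays, in the same order. The ends did not overlap for either gene, replicate 1 was lowest for both, and the differences of the means were 4.71 for Meg3 and 4.15 for Mirg. Between the ends, Meg3 was at 12.76, 12.59 and 9.33 and Mirg at 10.18, 10.25 and 7.01 on replicates 5, 4 and 2.

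The step did not depend on 1 probe set. All 11 probe sets of Meg3 were higher on the Rian-high arrays, without overlap, by 1.71 to 5.45. The other 3 of Rian, by 2.97 to 4.55, and both of Mirg, by 1.64 and 4.15, did the same. The fourth of Rian, at 4.91, is the one that ranked the arrays. Averaging a gene's probe sets lowered the differences to 3.55 for Meg3 and 2.90 for Mirg. Of 45101 probe sets, 21 passed the rule of a difference of 1 or more (2-fold) with no overlap in the high direction and 7 in the low direction, and these 3 genes hold 17 of the 21, the ranking probe set included.

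The paternally expressed Dlk1 and the neighbours of the locus overlapped between the ends. Dlk1 was at 10.72, 10.43 and 8.22 on Rian-high replicates 8, 3 and 6, against 11.45, 11.73 and 10.04 on Rian-low replicates 9, 7 and 1. The ends overlapped, since 2 Rian-high arrays were above Rian-low replicate 1, and the means were 9.79 ± 1.37 and 11.07 ± 0.91 (SD, n = 3 each), a difference of -1.28, and -0.50 without Rian-high replicate 6. Dio3os, an RNA antisense to the deiodinase gene Dio3, overlapped too, at 5.91 to 6.65 on Rian-high and 5.83 to 6.33 on Rian-low arrays, with a difference of 0.27 (0.12 to 0.51 with 1 array left out, 0.16 without replicate 3). Rtl1 and Dio3 were not analysed here. The 11 measured genes on either side of the locus on chromosome 12 all overlapped, with differences of -0.30 (Evl, an actin regulator) to 0.18 (Degs2, a sphingolipid desaturase) and a median of -0.02 (-0.07 without replicate 3, 0.03 without replicate 9).

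Outside the locus, 2 genes were higher and 2 lower on the Rian-high arrays by the rule of 1 or more with no overlap. Over all 18194 genes, the locus included, 5 were higher (0.0275%) and 2 lower (0.011%), 7 in all (0.0385%). The 3 maternal RNAs make up the rest of the higher genes, and their smallest difference, 4.15, exceeded the largest outside the locus, -2.82 for Eif2s3y, in size. The median difference of all genes was -0.0033 and the median size of a difference 0.0933. Without regard to overlap, 26 genes outside the locus were higher by 1 or more and 15 lower.

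**Figure D2:**
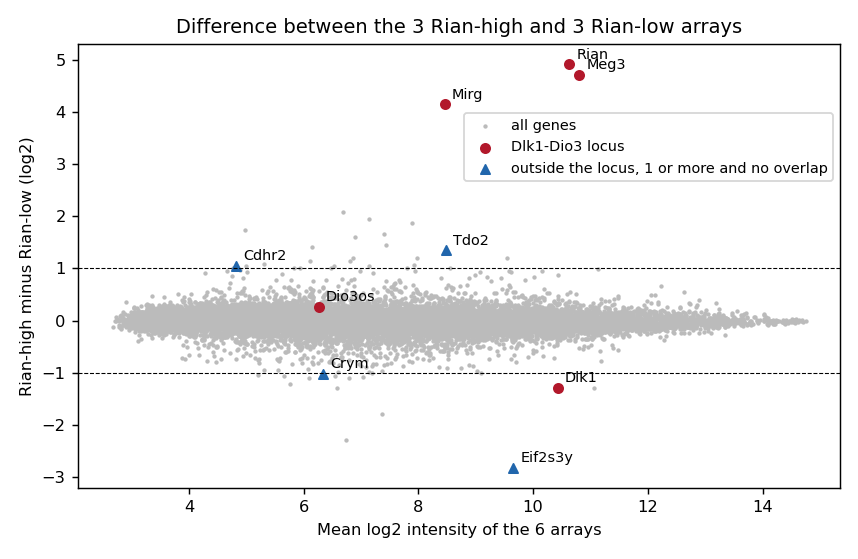
Rian-high minus Rian-low difference of mean log2 intensity (vertical axis) against the mean of the 6 arrays (horizontal axis), 1 point per gene for 18194 genes, with dashed lines at a difference of 1 in either direction. Rian, Meg3 and Mirg lie at 4.15 or more, far from Tdo2, Cdhr2, Crym and Eif2s3y, the 4 genes outside the locus that differ by 1 or more without overlap.

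Tdo2, the first enzyme of tryptophan breakdown in liver, had the largest positive difference outside the locus among genes whose ends did not overlap. Its values were 9.68, 9.02 and 8.76 on Rian-high replicates 8, 3 and 6, against 8.74, 7.52 and 7.15 on Rian-low replicates 9, 7 and 1. The ends missed overlapping by only 0.02 between replicates 6 and 9, and the difference of the means was 1.35. On the arrays between, Tdo2 was at 9.65 and 10.20 on replicates 5 and 4, the ones with Rian at the Rian-high level, and at 7.78 on replicate 2. Setting the 5 arrays above the widest gap against the 4 below it, a division chosen after the data were seen, left Tdo2 as the only gene outside the locus past the rule, with a difference of 1.66, and no gene lower. It also passed without replicate 3 (1.42), and its 3 probe sets together gave 0.68 and no call.

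Cdhr2, a protocadherin of intestinal and kidney microvilli, was at 6.29, 5.34 and 4.42 on Rian-high replicates 8, 3 and 6, against 4.09 to 4.41 on the Rian-low arrays. Its difference was 1.05, and 0.58 without replicate 8, while replicate 6 exceeded the Rian-low arrays by 0.01. Without replicate 3, the array that went against its label, the difference was 1.06. Among the arrays between, 1 was far higher (7.35, replicate 4) and replicates 5 and 2 were at 3.95 and 4.27, so Rian at the high level on replicate 5 went with low Cdhr2. The division into 5 and 4 arrays did not call it.

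Crym, a thyroid hormone-binding protein of the cytosol, was lower on the Rian-high arrays, at 5.91, 5.24 and 6.33 (replicates 8, 3 and 6), against 7.02, 6.91 and 6.61 on the Rian-low arrays (replicates 9, 7 and 1). The difference was -1.02, and replicate 5, with Rian at the high level, had 7.04. Without replicate 3 the difference was -0.73 and the gene no longer passed. Eif2s3y was at 10.72, 3.21 and 10.81 on Rian-high replicates 8, 3 and 6, against 11.27, 10.85 and 11.07 on Rian-low replicates 9, 7 and 1. Its difference of -2.82 became -0.30 without replicate 3. Leaving that array out, 5 genes outside the locus were higher, Tdo2 and Cdhr2 among them, and 10 lower, none of them Crym or Eif2s3y.

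Genes just under the rule, with no overlap but a difference below 1, included 3 transcription factors of endoderm. Sox17 was at 10.39, 10.06 and 9.79 on Rian-high replicates 8, 3 and 6, against 9.33, 9.49 and 8.61 on Rian-low replicates 9, 7 and 1, a difference of 0.94. Foxa2 was at 9.40, 9.52 and 9.70 on the Rian-high arrays and at or below 8.73 on all the Rian-low ones, a difference of 0.93. The Foxa1 difference was 0.87, and 0.51 without Rian-low replicate 1. On the arrays between, replicate 5, with Rian at 13.01, had 9.14 for Sox17, 8.55 for Foxa2 and 8.56 for Foxa1, all within the Rian-low ranges. Replicate 4 had 11.57, 10.60 and 9.48. Other genes near this size were Amy1, an amylase (0.96), Acaa1b, a peroxisomal thiolase (0.77), Ppm1h, a phosphatase (0.72, but 0.40 without replicate 6 and 0.46 without replicate 1), Serpinf2, an inhibitor of plasmin (0.71), and Marveld2, a protein of tricellular tight junctions (0.68, but 0.25 without replicate 1). Sox17, Foxa2 and Foxa1 were the only ones of 25 definitive endoderm and gut genes without overlap, beside 2.74% of all genes higher. That list had 19 higher and 6 lower means, a median difference of 0.12, and list means that overlapped, at 8.53 to 8.94 on Rian-high and 8.03 to 8.65 on Rian-low arrays. Without Rian-low replicate 1 the median was -0.005, with 12 of 25 positive, and without any 1 of the other 5 arrays it was 0.145 to 0.32, highest without replicate 3.

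Lower genes without overlap were led, after Eif2s3y and Crym, by Mt4, a metallothionein of stratified epithelium (-0.99), and Abtb2 (-0.96), which were -0.53 and -0.59 without Rian-high replicate 6. Krt16, a keratin of stratified epithelium, was tight within each end: 5.64, 5.59 and 5.61 on Rian-high replicates 8, 3 and 6, against 6.59, 6.71 and 6.32 on Rian-low replicates 9, 7 and 1. All 3 arrays between, at 5.58, 5.39 and 5.81, were near the Rian-high level, replicate 2 with its low Rian included. Nppb, a natriuretic peptide of the heart, differed by -0.86, Fbp1, an enzyme of gluconeogenesis, by -0.80, and Prdm14, a regulator of pluripotency, by -0.79. No overlap at any size was found for 498 genes in the high direction (2.74%) and 387 in the low direction (2.13%), 885 in all (4.86%). Lack of overlap alone therefore does not tie a gene to Rian, and the share under other divisions of the arrays was not tested.

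**Figure D3:**
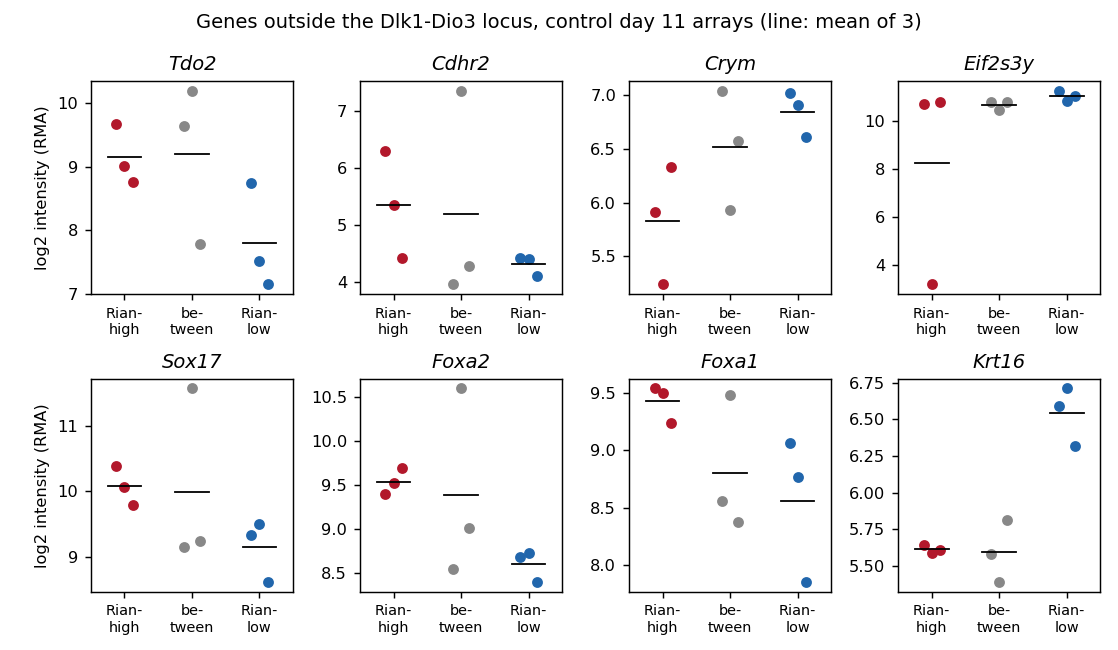
Log2 intensity (vertical axis, a scale of its own in each panel) of 8 genes outside the Dlk1-Dio3 locus on the Rian-high, in-between and Rian-low control day 11 arrays, with 1 point per array and a line at the mean of 3. Eif2s3y is low on 1 Rian-high array only, and for Tdo2 and Cdhr2 the lowest Rian-high array lies within 0.02 of the highest Rian-low one.

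The gene lists gave few members apart. Beside the locus list, with 3 of 5 members, 0 of the members of any of the 30 other lists passed the rule with all 6 arrays. Without Rian-high replicate 6, 23 of 32 visceral endoderm and yolk sac genes passed as higher, beside 87 of all 18188 genes outside the locus. Of these 32 genes, 31 had a higher mean on the Rian-high arrays and the median difference was 0.68, against -0.0033 over all genes. Only Sox17 and Foxa2 did not overlap, 2 of 32, beside 2.74% of all genes. The mean of that list was 10.11, 9.82 and 7.40 on Rian-high replicates 8, 3 and 6, against 8.51, 8.54 and 8.21 on Rian-low replicates 9, 7 and 1. Replicate 6 was thus the lowest of the 6 arrays, although its Rian equalled that of replicate 3. The median difference was 0.20 without replicate 8 (21 of 32 positive), 0.34 without replicate 3 (25 of 32) and 1.42 without replicate 6 (32 of 32). Between the ends, the list mean was 7.96, 10.97 and 7.72 on replicates 5, 4 and 2. Afp, the fetal serum protein of this tissue, was at 12.85, 12.40 and 7.35 on Rian-high replicates 8, 3 and 6 and at 10.42, 11.44 and 8.14 on Rian-low replicates 9, 7 and 1. The Afp difference of 0.87 was -0.13 without replicate 8, 0.10 without replicate 3, 2.63 without replicate 6 and -0.06 without replicate 1. Cdhr2 was highest on replicates 4, 8 and 3, the 3 arrays with the highest means of this list, and the part of visceral endoderm in its difference was not tested.

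Lists of other tissues overlapped between the ends. Pluripotency genes had a median of -0.20 and 26 of 29 lower means, with 3 of 29 lower without overlap, beside 2.13% of all genes: Prdm14, Fgf4, a growth factor of the epiblast, and Dppa3, a maternal and germline factor (-0.60, but -0.32 without replicate 6). The list means were 8.86 to 9.40 on Rian-high and 9.21 to 9.79 on Rian-low arrays. The median rested on single arrays: it was -0.0017 without replicate 1 (13 of 29 positive), -0.055 without replicate 6 (12 of 29 positive), -0.37 without replicate 9 and -0.44 without replicate 3. Among 25 surface ectoderm and epithelium genes, 3 were lower without overlap (2.13% of all genes), Krt14, Cldn4 and Ovol1, by 0.44 to 0.56 in size (Krt14 -0.30 and Ovol1 -0.31 without replicate 6), and the median of the list was -0.07 (-0.17 to -0.03 with 1 array left out). Genes of cardiomyocyte contraction had a median of -0.23 and list means of 7.23 to 8.36 on Rian-high and 7.16 to 8.86 on Rian-low arrays. Their median turned to 0.10 without replicate 7 (29 of 41 positive) and 0.03 without replicate 6, and was -0.51 without replicate 8 and -0.73 without replicate 1. Of 26 macrophage and mast cell genes, 3 were higher without overlap (2.74% of all genes), the mast cell proteases Mcpt4, Tpsb2 and Cma1, by 0.23 to 0.28 (Mcpt4 0.18 and Tpsb2 0.10 without replicate 6). The median of the list was -0.15, with 20 of 26 lower means, but it was 0.014 without replicate 7 (13 of 26 positive), -0.016 without replicate 3, -0.078 without replicate 6, -0.25 without replicate 8 and -0.37 without replicate 1. Fibroblast and matrix genes had list means of 8.57 to 9.13 on Rian-high and 8.13 to 9.35 on Rian-low arrays. Their median of -0.07 was 0.03 without replicate 3, 0.04 without replicate 9 and 0.21 without replicate 7, and -0.27 without replicate 1.

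Other imprinted genes overlapped between the ends. Of 43 measured imprinted genes outside the Dlk1-Dio3 locus, 0 passed the rule, 0 separated the ends at any size, and the median difference was -0.05 (-0.16 to 0.11 with 1 array left out, -0.02 without replicate 3). Other choices of arrays did let some pass: Airn was higher and Calcr, the calcitonin receptor, lower with 2 against 2 arrays or without replicate 6. Airn was also higher when the arrays were ranked by the mean of Rian's probe sets. Slc38a4 was lower without replicate 8, and Peg12 and Asb4 were lower without replicate 1. These passes were singled out after their values were seen. Of all 18188 genes outside the locus, 85 were higher and 12 lower with 2 against 2, and 87 and 12 without replicate 6. Ranking by the mean of Rian's probe sets gave 3 higher. Leaving out replicate 8 gave 32 lower, and leaving out replicate 1 gave 78 lower. With all 6 arrays, the differences of the 43 imprinted genes ran from -0.77 for Slc38a4, an amino acid transporter, to 0.68 for Airn, a noncoding RNA of another imprinted cluster. Slc38a4 averaged 10.79 ± 1.17 on Rian-high and 11.57 ± 0.48 on Rian-low arrays, and Airn 8.86 ± 1.48 and 8.18 ± 0.74 (SD, n = 3 each). Airn differed by -0.05 without replicate 3 and 1.43 without replicate 6, and Slc38a4 by -0.12 without replicate 6 and -1.25 without replicate 8. The 29 Hox genes had a median of -0.26, with 24 of 29 lower means and 1 gene apart in each direction, beside 2.74% of all genes higher and 2.13% lower. Their median was 0.0067 without replicate 9 (15 of 29 positive), -0.083 without replicate 3, -0.13 without replicate 7 and -0.45 without replicate 1.

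**Figure D4:**
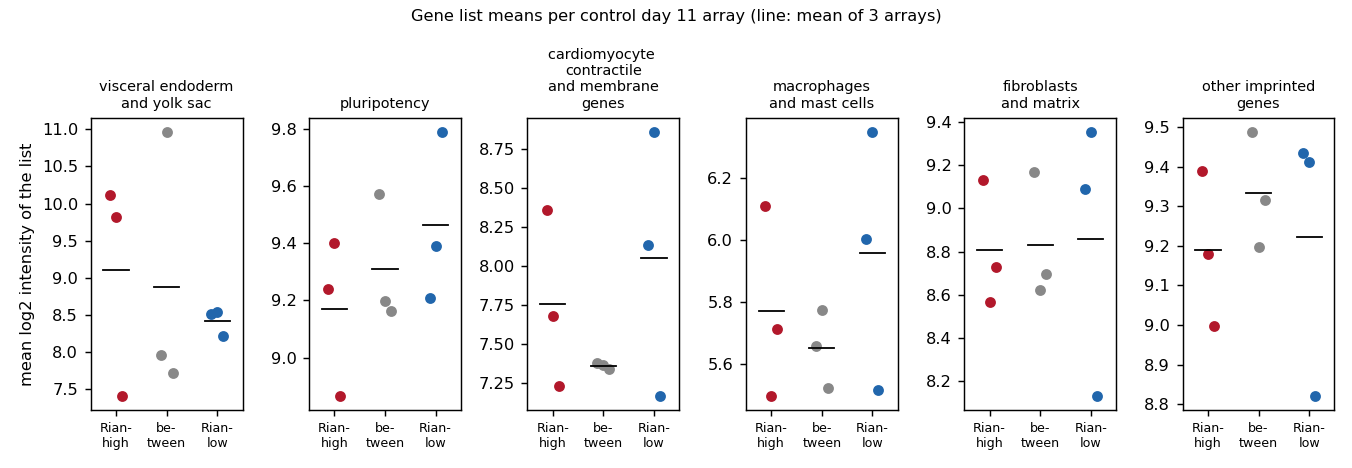
Mean log2 intensity over the members of 6 gene lists (vertical axis, a scale of its own in each panel) on the Rian-high, in-between and Rian-low control day 11 arrays, with 1 point per array and a line at the mean of 3. The Rian-high and Rian-low arrays overlap in all 6 lists, and 1 Rian-high array, replicate 6, has the lowest visceral endoderm mean.

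The 22 arrays that the ranking did not use allow a test. Within each of their 3 groups, every gene was regressed on Rian with limma, and the slope is the change in log2 intensity per unit of Rian, adjusted over 18193 genes. Rian was at 5.96 to 7.82 on Nos3-/- day 11 arrays, at or under the level of Rian-low replicate 1 (6.21) on 1 of the 6 and below Rian-low replicate 7 (8.82) on all 6. It was at 9.32 to 10.94 on Nos3-/- day 0 arrays and at 10.16 to 12.58 on control day 0 arrays.

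In control day 0 iPSCs, 1 gene of 18193 passed (0.0055%), and it was Mirg, with a slope of 1.74 (SE 0.13, limma adjusted p = 5.15e-07). Mirg was at 10.02, 9.16, 9.44, 9.92 and 10.27 on replicates 4, 5, 6, 7 and 9, where Rian was 12.26 or above. It was at 6.75, 6.91, 7.15, 6.11 and 5.94 on replicates 1, 2, 3, 8 and 10, where Rian was 11.29 or below. The 10 arrays thus fall into 5 and 5, and the slope describes the step between them. It was 1.73 without replicate 4 and 1.68 without replicate 9, the arrays with low Y-linked genes, and passed with any 1 of the 10 left out (1.66 to 1.89). Meg3 had a slope of 1.10 (SE 0.21) and did not pass (limma adjusted p = 0.341). With the probe sets of each gene averaged it did (0.79, limma adjusted p = 0.0121), as it did with the mean of Rian's probe sets as the covariate (1.06, 0.0292) and without control day 0 replicate 1 (1.37, 0.00702).

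**Figure D5:**
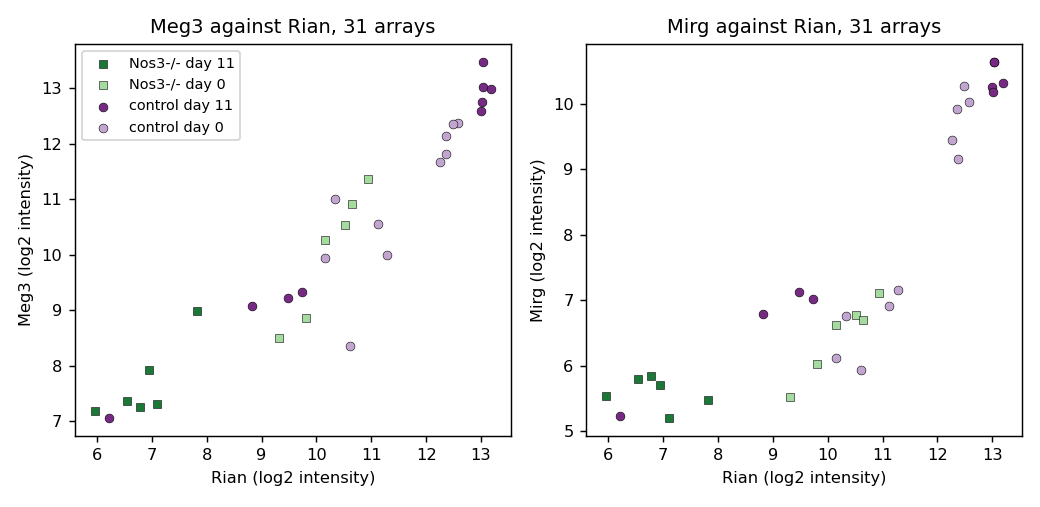
Meg3 (left) and Mirg (right) against Rian, each in log2 intensity, on all 31 arrays, with 1 point per array and colour and shape for the group. Control arrays of both days fall into a set with Rian at 12.26 or above and Mirg at 9.16 or above, and a set with Mirg at 7.15 or below.

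In Nos3-/- day 11 embryoid bodies, 0 genes passed (0.0% of 18193 by limma), and 545 had an unadjusted p under 0.05. Meg3 had a slope of 0.92 (SE 0.43, limma adjusted p = 1.0) and Mirg of -0.13 (SE 0.26, limma adjusted p = 1.0). Mirg lay at 5.20 to 5.84 on these 6 arrays, near Rian-low replicate 1 (5.23). Simulated data gave each gene independent noise and 1 spread, averaged over the 3 groups. In them, 30% of genes with a slope of 0.5 in this group and 74% with a slope of 1 were recovered. The spread of these 6 arrays and links between genes were not simulated, so these shares may not hold for the real data.

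Nos3-/- day 0 iPSCs gave 1038 genes (5.71%), 526 higher with Rian (2.89%) and 512 lower (2.81%). Meg3 (slope 1.87, SE 0.44, limma adjusted p = 0.0215) and Mirg (0.95, SE 0.27, limma adjusted p = 0.0483) were among them. The smallest adjusted p values belonged to genes far from the locus, such as Golga3, a Golgi protein (0.86), Setd1b, a histone methyltransferase (1.35), and Sirt4, a mitochondrial sirtuin (-0.80). The count rests on 1 array, as it was 0 without replicate 5, which has the lowest Rian of the group. It was 1 when the group was fitted alone, and that gene was Rgs2, not Meg3 or Mirg. Other measures moved along: the macrophage and mast cell list had means of 8.54, 8.29, 7.49, 7.23, 6.86 and 7.06 on replicates 1 to 6, where Rian was 10.94, 10.52, 10.65, 10.15, 9.32 and 9.80, and 6 of its 26 genes passed. Xist rose with Rian too (slope 2.05, limma adjusted p = 0.00689), at 7.17 on replicate 5 and 10.18 on replicate 1. With the mean of the macrophage list as a covariate, a setting chosen after the data were seen, 1172 genes passed, and 316 of them were among the 1038. Between Nos3-/- day 11 and day 0 arrays, 191 slopes differed (1.05%), 104 of them more positive at day 11 (0.572%) and 87 more negative (0.478%), and Meg3 (-0.95) and Mirg (-1.07) were not among them (limma adjusted p = 0.436 and 0.140).

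None of Tdo2, Cdhr2, Crym and Eif2s3y passed in any of the 3 groups. Tdo2 had slopes of -1.38 (SE 0.48) in Nos3-/- day 11 embryoid bodies, 0.02 (SE 0.50) in Nos3-/- iPSCs and -0.06 (SE 0.23) in control iPSCs, with limma adjusted p of 1.0, 0.99 and 1.0, so its sign in the Nos3-/- embryoid bodies was opposite to that among the control ones. Its level was 3.37 to 7.32 in Nos3-/- day 11 embryoid bodies and 3.40 to 3.99 on all day 0 arrays, near the low end of the scale. The slopes of Cdhr2 (0.24, SE 0.35), Crym (0.29, SE 0.42), Sox17 (-0.94, SE 1.21) and Foxa2 (-0.53, SE 0.87) in Nos3-/- embryoid bodies were smaller than their errors (limma adjusted p = 1.0 for each). Among the 30 genes named as highest and lowest outside the locus, Arhgap24, a regulator of small GTPases that was 0.58 higher on the Rian-high arrays, alone passed in a group, Nos3-/- iPSCs (1.16, SE 0.30, limma adjusted p = 0.0296), whose count rests on replicate 5.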

How the data were processed

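RNA of 31 samples was measured on Affymetrix arrays. The authors deposited log2 intensities summarized with RMA, per the submitters' processing notes, and the software version and any batch step are not given in the sources used here. Values run from 2.32 to 15.01, array medians from 6.13 to 6.23, and 0 pairs of arrays are identical. Of 45101 probe sets, 34958 carry 1 gene symbol, 932 several and 9211 none. A gene is its probe set with the highest mean (18194 genes, 9012 with more than 1 probe set), and 34754 probe sets matched the RefSeq gene table of GRCm38.p6. The locus runs from Dlk1 to Dio3, chr12:109452485-110281097, with 6 measured genes.

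Rian-high and Rian-low are the ends of a ranking on the same arrays, so their differences have no p. A gene passed at a difference of 1 or more with no overlap. Slopes on Rian, centred within group, were fitted with limma 3.58.1 (R 4.3.3) to the 22 other arrays, with a mean and a slope per group, 16 residual and 2.78 prior degrees of freedom, and a Benjamini-Hochberg threshold of 0.05. Simulated data with 200 changed genes were used to check the fit. Signal over background is not in the files, and the number of arrays limits the precision.

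Named genes are the locus and its flanks, the 15 highest and 15 lowest without overlap, list members past the rule, Afp, and the 10 with the smallest adjusted p in each slope test, leaving out predicted genes and clones. A few list members and the sex-linked genes were added after their values were seen. Of 875 entries in 31 lists, 821 were measured. The members, lists and rules were chosen with earlier results of these data known. The labels do not say whether replicate numbers pair the arrays of the 2 days. Deviations of same-numbered arrays correlated at -0.02 to 0.29 in Nos3-/- and -0.24 to 0.27 in control. The same number gave the highest correlation for Nos3-/- replicates 1, 3 and 5 and control replicate 2, and another number did for the rest. Such weak correlations cannot tell whether arrays share a line.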

Additional observations from a re-analysis of the deposited data

Results flagged for a closer look

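Single arrays lay far from the others of their group for the genes below. Chance alone gives about 1 in 20 groups, and since most of these genes were chosen for their values in these data, how many were found is not set against it. On control day 11 replicate 3, a Rian-high array, Eif2s3y was 3.21 (next 10.46), Kdm5d 2.79 (next 6.26) and Uty 2.95 (next 7.17). Rian-low replicate 1 stood apart for Marveld2, at 6.71 (next 7.84), and for Lin28b, a regulator of let-7 microRNAs, at 4.97 (next 4.12). In control day 0 iPSCs, Eif2s3y was 7.75 on replicate 4 (next 10.19), Afp 6.38 on replicate 5 (next 5.42) and Xist 7.99 on replicate 10 (next 9.10). Cdhr2 was 6.48 on Nos3-/- day 11 replicate 3 (next 4.45).

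The slope on Rian differed between Nos3-/- day 11 and Nos3-/- day 0 arrays for 191 of 18193 genes (1.05%) by limma. As day 11 minus day 0, the named ones were Golga3 (-0.85), Setd1b (-1.46), Eif2ak1 (-1.06) and Cblb (-1.32) on the lower side. On the higher side were Pate14 (2.44), Ppp1r36 (1.22), Abhd3 (1.40), Sirt4 (0.69), Acad8 (0.71), Lancl1 (0.99), Cenpx (1.05), Usp17la (2.09), Nmnat2 (1.202), Acads (0.94) and Tnfrsf10b (1.27). This count was 0 without Nos3-/- day 11 replicate 2 or 4, and without Nos3-/- day 0 replicate 5 or 6.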

How the results depend on the processing

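The Rian-high minus Rian-low differences of Meg3 and Mirg stayed positive under all alternatives run. For Meg3 this was fixed in advance where Meg3 ranked the arrays, and many of the other alternatives kept the same high and low arrays. Outside the locus, the 2 higher and 2 lower genes became 1 and 0 with 4 against 4 arrays, 85 and 12 with 2 against 2, 15 and 24 at 1.5-fold, 26 and 15 with no condition on overlap, and 1 and 0 with 5 against 4. Fewer arrays make separation easier by construction. The higher count was 1 after quantile normalization, 0 after centring on array medians (which gave 5 lower), 0 without genes below the lower tertile, which leaves out Tdo2 and Cdhr2, and 1 with probe sets averaged per gene. Ranking by the mean of Rian's probe sets gave 3 higher genes (Airn, Apoa4 and Tdo2, without Cdhr2) and 5 lower ones, of which Eif2s3y alone is shared with the 2, so Crym was lost. Leaving out 1 array gave 5 (without replicate 3 or 7) to 87 (without replicate 6) higher and 4 (without replicate 9) to 78 (without replicate 1) lower genes. Of 17 settings, Tdo2 passed in 14, Eif2s3y in 13, Crym in 10 and Cdhr2 in 9. The 17 include the main setting, which picked these genes, and the ranking by Meg3, which chose the same arrays. Most settings share arrays, so these tallies do not measure how well a difference would repeat. Eif2s3y rests on replicate 3, without which its difference was -0.30.

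The slope count in Nos3-/- day 11 arrays was 1 with the mean of Rian's probe sets as the covariate, 3 with the macrophage list as a covariate, and 0 to 2 with 1 array left out. In control iPSCs it was 2 with the mean of a gene's or of Rian's probe sets, and 1 to 3 with 1 array left out. In Nos3-/- iPSCs it was 1 for the group alone and 0 to 1356 with 1 array left out. The difference of slopes, 191 genes, gave 337 after centring, 115 with probe sets averaged per gene, 0 with Rian's averaged, 2 and 1198 with the fibroblast and macrophage covariates (chosen after seeing the data, as was 5 against 4), and 0 to 580 with 1 array left out. With the replicate number as a block, counts were 0, 1, 896 and 226, and no call changed by over 1.5 times. The causes were not tested. Some differences of single genes changed sign with 1 array left out. Afp went from 0.87 to -0.13 without replicate 8, and Airn from 0.68 to -0.05 without replicate 3.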

Other observations

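Among probe sets not assigned to a gene, which carry no symbol or several, 2 were higher on the Rian-high arrays by 1 or more without overlap. The first was at 9.52, 10.05 and 9.63 on Rian-high replicates 8, 3 and 6, against 5.65, 5.17 and 3.83 on Rian-low replicates 9, 7 and 1. The other was at 6.97, 7.70 and 6.22 on the Rian-high arrays and at 3.22, 3.45 and 2.98 on the Rian-low arrays. Both stood at the high level on replicates 5 (9.45 and 6.76) and 4 (8.99 and 5.65) and at the low level on replicate 2 (5.59 and 3.61), the division shown by Rian, Meg3 and Mirg. The 4 unassigned probe sets that were lower, with differences of -1.47 to -3.05, were lowest on replicate 3. Without it, their differences were -0.48 to -0.76 and none passed, whereas the 2 higher ones still did, at 4.69 and 3.38.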
